A study of Mus musculus with 2 samples.

Results

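The transcripts of 6 genes that dendritic cells (DCs) use to restrain T cells were followed across the DC subsets of the skin-draining lymph node: Ido1, Ido2, Aldh1a2, Il4i1, Cd200 and Tgfb1. They were taken by name, and all 6 were among the 18049 genes listed in the expression tables. The study used CITE-seq, which reads mRNA and antibody barcodes bound to surface proteins from the same single cells, on migratory DCs sorted as MHCIIhi CD11c+ B220- cells from B6 mice. The naive library came from mice that were not immunized, and the papain library from mice given ovalbumin (OVA) plus papain, a protease allergen, in the rear footpads and taken 1 day later. There was 1 library per condition, the number of mice behind each is not given in the sources used here, and all were B6 mice, so the groups share their strain and the sort. The study's methods describe popliteal nodes for the papain library and pooled skin-draining nodes for the naive one, whereas the sample labels name popliteal nodes for both. If the methods hold, immunization and site cannot be told apart.

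The cells were compared within the surface protein classes that the authors assigned: cDC2s with high, intermediate or low CD301b protein (CD301bhi, CD301bint and CD301blo), cDC1s and Langerhans cells (LCs). In the naive library 3042 of 3471 cells had one of these classes and in the papain library 7306 of 7596. The naive classes held 707, 659, 658, 578 and 440 cells in that order, and the papain classes 2893, 1827, 1470, 235 and 881. Median depth was 13764 unique molecular identifiers (UMIs, each 1 captured mRNA molecule) per cell in the naive library and 14738 in the papain library, and 2 cell barcodes occurred in both. The labels were checked against marker transcripts. Summed levels of Cd207, Epcam and Cd24a were 210.9 and 286.6 counts per 1000000 UMIs (CPM) in naive and papain LCs, against 19.5 to 54.1 in cDC2s. Those of 5 cDC1 markers were 597.3 and 850.4 in cDC1s, against 167.9 to 272.9 in cDC2s and 374.0 and 532.5 in LCs, and those of 5 cDC2 markers were 129.0 to 259.5 in cDC2s, against 35.8 to 83.8 in the other classes. The naive cDC1s also carried T cell transcripts, with a summed level of 191.8 CPM for 5 genes against 25.4 in papain cDC1s and 9.55 to 52.1 in cDC2s and LCs.

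These genes act in different ways. Indoleamine 2,3-dioxygenase 1 and its relative IDO2 turn tryptophan toward kynurenine, which starves T cells of an amino acid and supplies ligands of the aryl hydrocarbon receptor. IL4I1 is a secreted oxidase of aromatic amino acids. ALDH1A2, also called RALDH2, makes retinoic acid from retinaldehyde, and DCs that carry it can promote regulatory T cells. CD200 is a surface protein that engages the inhibitory receptor CD200R on myeloid cells. TGF-beta 1 is secreted in a latent form that has to be released, for example by integrins, before it signals, and it maintains LCs and regulatory T cells.

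The stretch of DNA just before the start of a gene is shown for the 3 members on which the results turn, since Aldh1a2 and Cd200 moved in opposite directions between the libraries in cDC2s and Tgfb1 differed between DC classes. Of the 6 genes, 4 had an entry in the RefSeq promoter table for GRCm38.p6, the assembly also called mm10. Aldh1a2 lies at chr9:71215789-71296243 on the plus strand and its window covers chr9:71215539-71215788. Cd200 lies at chr16:45382111-45409060 on the minus strand with a window at chr16:45409061-45409303, and Tgfb1 at chr7:25687002-25705077 on the plus strand with a window at chr7:25686752-25687001. Each window is printed 5′ to 3′ on the strand of its gene and ends at the base before the annotated start, with 250 bases for Aldh1a2 and Tgfb1 and 243 for Cd200. Capitals mark the letters GCGTG or its reverse complement CACGC, the core to which the aryl hydrocarbon receptor binds, and a match to the NF-kappaB motif.
Aldh1a2: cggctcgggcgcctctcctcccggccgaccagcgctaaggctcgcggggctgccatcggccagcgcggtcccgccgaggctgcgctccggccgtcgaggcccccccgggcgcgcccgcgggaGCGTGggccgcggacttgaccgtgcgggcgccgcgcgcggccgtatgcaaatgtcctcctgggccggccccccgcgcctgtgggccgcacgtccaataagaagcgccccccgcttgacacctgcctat
Cd200: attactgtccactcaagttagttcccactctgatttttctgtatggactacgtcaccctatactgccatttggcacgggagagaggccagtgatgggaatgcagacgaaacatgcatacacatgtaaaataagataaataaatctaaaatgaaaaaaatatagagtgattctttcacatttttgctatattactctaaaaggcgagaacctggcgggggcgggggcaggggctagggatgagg
Tgfb1: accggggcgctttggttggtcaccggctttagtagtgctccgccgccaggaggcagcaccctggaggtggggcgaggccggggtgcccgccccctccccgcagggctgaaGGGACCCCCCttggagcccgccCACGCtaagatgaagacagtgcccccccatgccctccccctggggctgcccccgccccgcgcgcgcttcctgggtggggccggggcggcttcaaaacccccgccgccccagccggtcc
GC content was 77.6% in the Aldh1a2 window and 75.2% in that of Tgfb1, but 42.8% in that of Cd200, against a median of 52.4% over all windows in the table. The Aldh1a2 window held 40 CpG dinucleotides, that of Tgfb1 21 and that of Cd200 6. The GCGTG core was found once before Aldh1a2 and once before Tgfb1, on either strand, and it occurs in 28.2% of all windows of 250 bases. The NF-kappaB motif was found once before Tgfb1 and occurs in 7.25% of windows. The other motifs searched on both strands were TGACTCA (AP-1, in 4.46% of windows), TTCNNNGAA and TTCNNNNGAA (STAT factors, in 7.02% and 5.85%) and AGGTCA (the half-site of retinoid receptors, in 14.0%), and none of these letters were in any of the 3 windows. A match describes letters and is not evidence of binding. Of the other members, Il4i1 is at chr7:44836288-44840809, with a window that held none of these letters, Ido1 at chr8:24584133-24596952 and Ido2, its neighbour, at chr8:24531892-24576414.

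For each class the UMIs of a gene were summed over cells and divided by all UMIs of that class, giving CPM. Intervals in brackets are 95% intervals (exact Poisson for CPM, Clopper-Pearson for shares, exact conditional binomial for ratios). They cover counting error only, not the spread between cells, mice or libraries. The variance of Cd200 UMIs over cells was 3.53 times their mean in papain cDC1s and 4.23 times in papain CD301bint cDC2s. For Aldh1a2 it was 9.61 times in naive CD301bhi cDC2s. Intervals that allowed for this spread would be wider, and groups called separated are separated beyond counting error only. With 1 library per condition no test of the conditions was possible and no p-values are given. A gene was called past the fold when the ratio of its levels, with 1 CPM added to each, reached 1.5-fold in either direction and the higher level was at least 10 CPM. In CD301bhi cDC2s 3 of the 6 genes reached 10 CPM, and 1 was higher and 2 were lower in the papain library, whereas 9.41% of all 7226 genes tested were higher and 7.96% lower. The same 3 genes were tested and gave the same counts in CD301bint cDC2s (10.0% of all genes higher, 9.76% lower) and in CD301blo cDC2s (10.3% and 13.3%). In cDC1s 3 genes were tested, of which 2 were higher and 1 lower (9.35% and 11.8% of all genes). In LCs 2 were tested, of which 1 was higher and 0 lower (13.5% and 8.36%). The median log2 ratio of all genes tested was between 0.01 and 0.09 in these 5 comparisons.

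**Figure D1:**
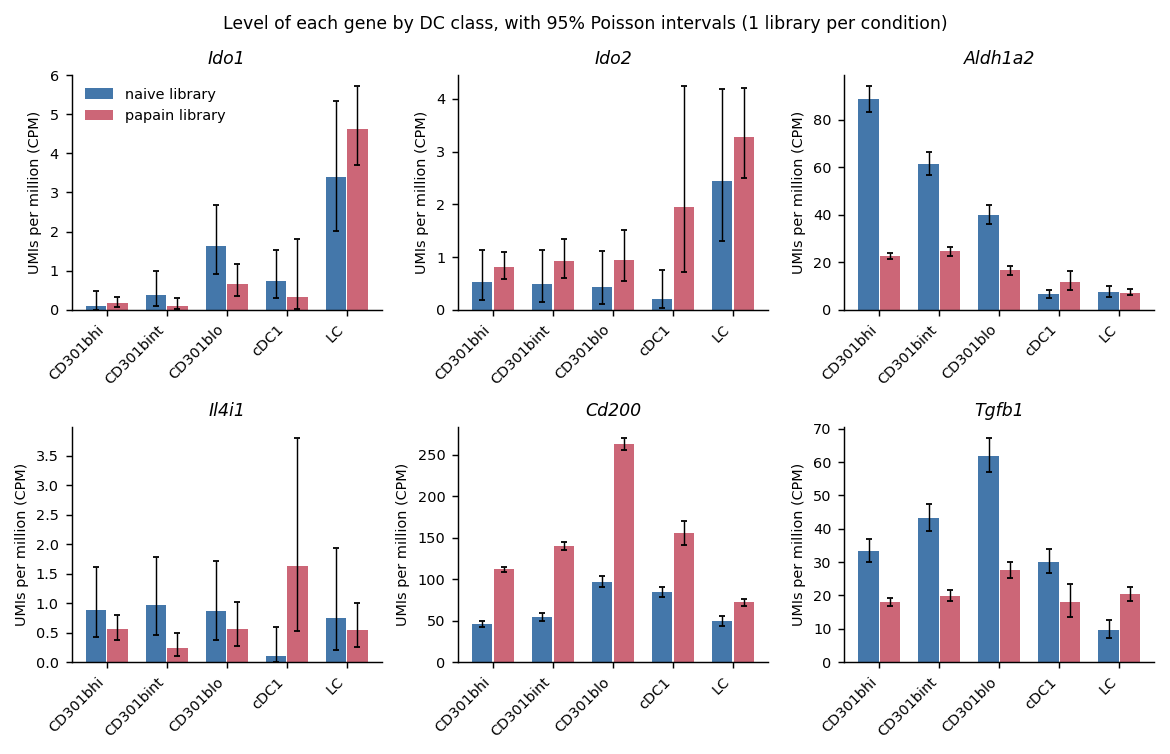
Level of each gene in CPM (vertical axis, linear, starting at 0) in the 5 DC classes (horizontal axis) of the naive library (blue) and the papain library (red), with 95% Poisson intervals. Cd200 is higher and Aldh1a2 and Tgfb1 are lower in the papain bars of all 3 cDC2 classes, and Ido1 and Ido2 are highest in LCs.

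Cd200 was higher in the papain library in every class. In CD301bhi cDC2s its level was 45.8 CPM [42.0–49.9] in the naive and 111.9 CPM [109.0–114.9] in the papain library, a ratio of 2.44 [2.23–2.68]. In CD301bint cDC2s it was 54.5 and 140.0 CPM, and in CD301blo cDC2s 97.0 CPM [90.7–103.6] and 262.8 CPM [255.4–270.4]. The ratios in these classes were 2.57 [2.35–2.81] and 2.71 [2.52–2.91], so that the cDC2 classes changed by similar factors from different starting levels. The log2 ratio of Cd200 lay at the 99.1, 99.2 and 99.3 percentile of all genes tested in the CD301bhi, CD301bint and CD301blo classes. In cDC1s the ratio was 1.84 [1.64–2.07], from 84.2 to 155.2 CPM. In LCs it was 1.45 [1.27–1.66], from 49.9 to 72.0 CPM, which does not reach the fold.

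More cells also held a Cd200 UMI. The share was 33.2% of naive and 61.0% of papain CD301bhi cDC2s, 36.3% and 64.9% of CD301bint cDC2s and 45.3% and 74.3% of CD301blo cDC2s. In cDC1s it was 52.6% and 67.2%, and in LCs 31.6% and 50.7%. Depth differs between classes, so each cell was also thinned to 8392 UMIs, which leaves out 28 to 264 shallower cells of a class, among them 127 of the 440 naive LCs. Then the shares were 23.3% and 46.1% in CD301bhi, 26.3% and 52.8% in CD301bint, 37.6% and 66.7% in CD301blo cDC2s, 39.7% and 59.5% in cDC1s, but 29.3% and 34.3% in LCs. For comparison, the genes of T and B cells Cd3e, Cd3d, Trac, Cd79a, Cd79b and Ms4a1 were found in 0.219% to 12.8% of cells of a class. The Cd200 shares exceeded all of these. The shares of these genes differed between classes of a library, with Cd79b in 11.1% of naive CD301blo cDC2s and 0.909% of naive LCs. They are thus not a measure of free RNA alone.

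Within cDC2s Cd200 and CD301b protein were inversely ordered. The level in CD301bhi cells was 0.472 times [0.423–0.527] that of CD301blo cells in the naive library and 0.426 times [0.410–0.443] in the papain library. The CD301bhi cells were also below the CD301blo cells inside 5 of 5 naive and 9 of 9 papain mRNA clusters with at least 20 cells of each kind. In the naive library the order was CD301blo, cDC1, CD301bint, LC and CD301bhi, of which LCs were not separated beyond counting error from CD301bint or from CD301bhi cells, whereas the intervals of CD301bint [50.1–59.2] and CD301bhi cells did not overlap. In the papain library LCs came last, and all neighbours were separated beyond counting error. The closest were cDC1s and CD301bint cells, at a ratio of 1.11 [1.01–1.22].

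The authors grouped the cDC2s of each library into mRNA clusters, numbered separately, so that cluster 1 of one library is not cluster 1 of the other. Naive clusters ranged from 39.1 CPM of Cd200 in cluster 3 to 101.5 in cluster 4. Papain clusters ranged from 93.0 CPM in cluster 2 to 445.0 in cluster 4, with 248.6 in cluster 7. Papain cluster 4 held 671 cells, of which 78.5% were CD301blo, and its median depth was 9131 UMIs. It made up 35.9% of the CD301blo cDC2s of that library and gave 47.1% of their Cd200 UMIs.

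**Figure D2:**
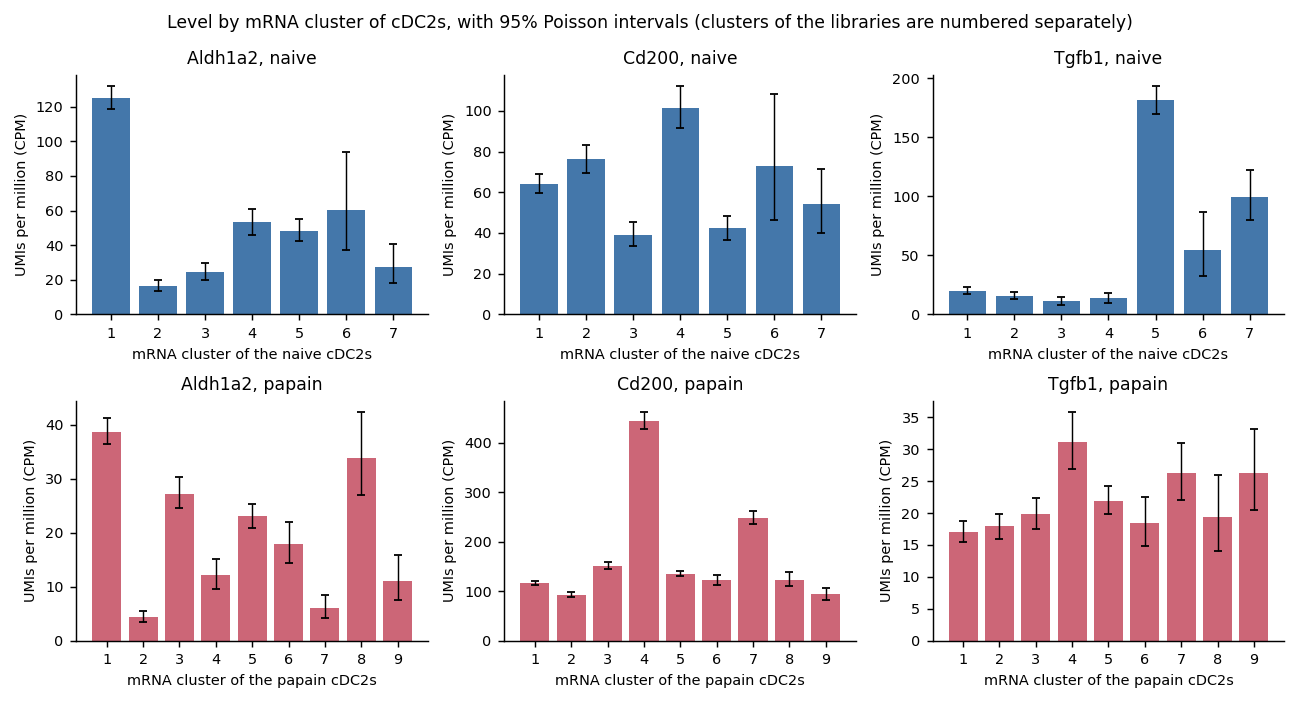
Levels of Aldh1a2, Cd200 and Tgfb1 in CPM (vertical axes, linear, starting at 0, with a scale of their own in each panel) in the authors' mRNA clusters of cDC2s (horizontal axes), naive above in blue and papain below in red, with 95% Poisson intervals. Aldh1a2 is highest in naive cluster 1 at 125.2 CPM, Cd200 in papain cluster 4 at 445.0 CPM and Tgfb1 in naive cluster 5 at 181.1 CPM.

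In cDC2s Aldh1a2 ran the other way from Cd200. In CD301bhi cDC2s it was at 88.6 CPM [83.2–94.3] in the naive library and 22.8 CPM [21.5–24.1] in the papain library, a ratio of 0.257 [0.236–0.280]. In CD301bint cDC2s it was at 61.4 and 24.6 CPM, a ratio of 0.400 [0.359–0.445]. In CD301blo cDC2s it was at 40.0 and 16.6 CPM, a ratio of 0.416 [0.356–0.485]. All 3 cDC2 classes were thus lower in the papain library. LCs did not differ beyond counting error, at 7.53 and 7.25 CPM with a ratio of 0.963 [0.672–1.41], from 14 naive and 65 papain cells with a UMI. The log2 ratio of -0.05 became -0.44 without the deepest 5% of cells and 0.79 without the 1% of cells with most Aldh1a2 UMIs.

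In the naive library the level of Aldh1a2 followed CD301b protein, with a ratio of 2.22 [1.97–2.50] between CD301bhi and CD301blo cells. In the papain library this ratio was 1.37 [1.21–1.56], short of the fold, and CD301bhi and CD301bint cells were not separated. In the naive library 1 of the 3 genes tested was higher in CD301bhi than in CD301blo cDC2s, namely Aldh1a2, and 2 were lower, Cd200 and Tgfb1, against 4.66% and 8.59% of all genes. In the papain library 0 were higher and the same 2 lower, against 3.75% and 3.60%, but Tgfb1, at a log2 ratio of -0.60, was close to the fold and no longer past it (-0.57 to -0.43) under 4 other settings. The share of cells with an Aldh1a2 UMI was 32.8% in naive and 19.1% in papain CD301bhi cDC2s, or 26.7% and 12.3% after thinning. Up to 43 Aldh1a2 UMIs were found in a single naive CD301bhi cell, against 21 in the papain library. That naive cell belonged to mRNA cluster 5, and the highest count in naive cluster 1 was 33.

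Much of the naive Aldh1a2 signal lay in 1 mRNA cluster. Naive cluster 1 held 536 cells, 51.9% of them with an Aldh1a2 UMI, and stood at 125.2 CPM, whereas naive cluster 2 was lowest at 16.2. It made up 40.5% of naive CD301bhi cDC2s and gave 80.1% of their Aldh1a2 UMIs, 27.3% and 63.1% in CD301bint cells and 10.6% and 32.0% in CD301blo cells. Papain clusters ranged from 4.35 CPM in cluster 2 to 38.7 in cluster 1. Within clusters with at least 20 cells of each kind, CD301bhi cells were above CD301blo cells in 3 of 5 naive and in 4 of 9 papain clusters.

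With naive cluster 1 left out, an alternative chosen after the data were seen, naive CD301bhi, CD301bint and CD301blo cDC2s stood at 34.7, 35.0 and 31.9 CPM. The papain to naive ratios became 0.657 [0.565–0.767], 0.702 [0.605–0.817] and 0.521 [0.439–0.619]. All remained below 1, CD301bint cells no longer reached the fold, and the naive ratio of CD301bhi to CD301blo cells became 1.09 [0.898–1.31]. Since the clusters of the libraries are not matched, no cluster of the papain library was left out. The naive cluster with the highest Aldh1a2 was removed and all papain cells were kept, so the naive levels had to fall. That cluster made up 40.5% of CD301bhi but 10.6% of CD301blo cells, so their naive ratio was prone to fall too. These ratios show how far the naive levels rested on cluster 1 and do not compare matched cells.

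In cDC1s Aldh1a2 was at 6.53 CPM [5.01–8.37] in the naive and 11.7 CPM [8.21–16.2] in the papain library, a ratio of 1.79 [1.16–2.75]. A single naive cell gave 25 of the 62 UMIs of naive cDC1s. That cell also held UMIs of T or B cell genes, and without all such cells the levels were 2.46 and 12.2 CPM, a ratio of 4.95 [2.72–9.32]. The share of cDC1s with an Aldh1a2 UMI was 3.81% and 9.79%, whereas Trac was found in 12.8% and 4.26% of them.

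**Figure D3:**
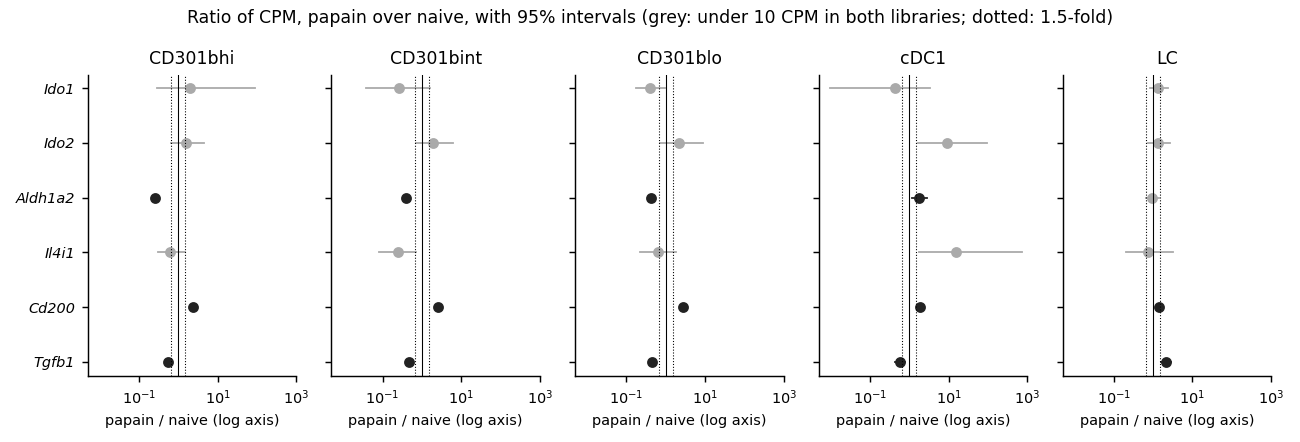
Ratio of levels between the papain and the naive library (horizontal axis, logarithmic) for the 6 genes in each DC class, with 95% intervals for counting error. Black points had at least 10 CPM in 1 of the libraries, grey points did not, the solid line is a ratio of 1 and dotted lines mark 1.5-fold. Cd200 lies above 1 in all 5 classes, whereas Aldh1a2 and Tgfb1 lie below 1 in the cDC2 classes and Tgfb1 lies above 1 in LCs.

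With all cells counted, Tgfb1 was lower in the papain library in cDC2s and cDC1s and higher in LCs. The cDC2 ratios were between 1.01 and 1.19 without 1 naive mRNA cluster, cluster 5, and the cDC1 ratio was 0.833 [0.568–1.20] without cells holding T or B cell gene UMIs. In CD301bhi, CD301bint and CD301blo cDC2s the levels were 33.4, 43.2 and 61.9 CPM in the naive and 17.9, 19.8 and 27.5 CPM in the papain library. The ratios were 0.536 [0.475–0.605], 0.459 [0.405–0.520] and 0.445 [0.394–0.503]. In LCs it was 9.59 CPM [7.14–12.6] and 20.4 CPM [18.4–22.6], a ratio of 2.12 [1.58–2.91]. LCs thus held the lowest level of the naive classes, and a level not separated from CD301bint cDC2s in the papain library. The share of LCs with a Tgfb1 UMI was 8.18% and 28.0%, at a median depth of 10768 and 18290 UMIs, and 6.39% and 14.1% after thinning. Without LCs holding T or B cell gene UMIs the LC ratio was 2.04.

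Tgfb1 was lower in CD301bhi than in CD301blo cDC2s in both libraries, with ratios of 0.539 [0.472–0.615] and 0.649 [0.581–0.726], and the naive log2 ratio of -0.87 became -0.46, short of the fold, without naive cluster 1. Within clusters with at least 20 cells of each kind, CD301bhi cells were below CD301blo cells in 3 of 5 naive and 7 of 9 papain clusters. The share of cells with a Tgfb1 UMI in the naive and papain library was 24.0% and 23.5% in CD301bhi, 25.5% and 24.5% in CD301bint and 33.0% and 23.6% in CD301blo cells. After thinning it was 15.2% and 12.8%, 17.5% and 14.5%, and 26.2% and 17.9%. The highest count in a cell was 21 UMIs in naive cluster 5 and at most 7 in the other naive clusters, as in papain CD301bhi cDC2s.

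**Figure D4:**
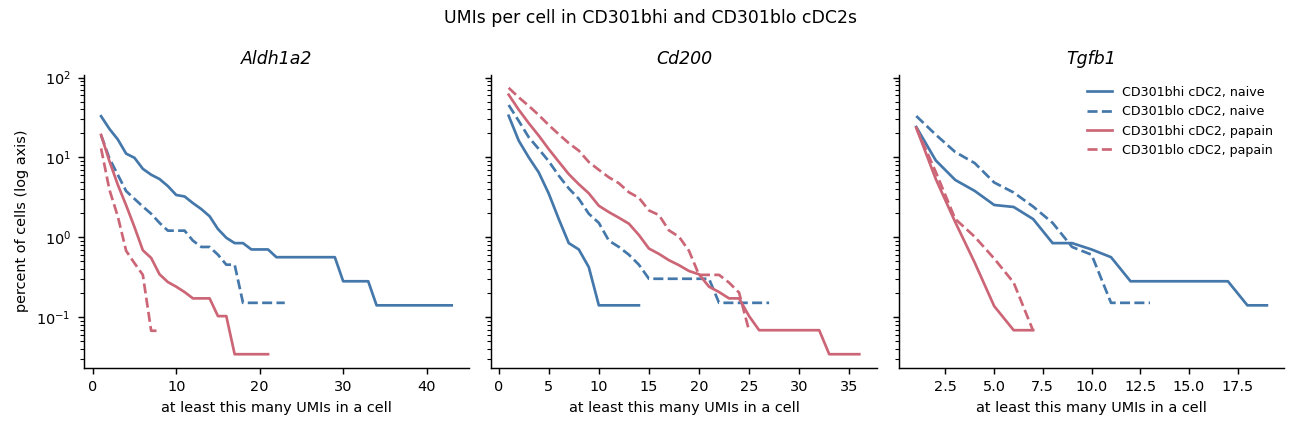
Percent of cells (vertical axis, logarithmic) with at least the number of UMIs on the horizontal axis, for CD301bhi (solid) and CD301blo (dashed) cDC2s of the naive (blue) and papain (red) library. The Cd200 curves of the papain library begin at 61.0% and 74.3% of cells, above both naive curves, and the naive CD301bhi curve of Aldh1a2 reaches 43 UMIs.

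Much of the naive Tgfb1 lay in 1 mRNA cluster. Naive cluster 5, with 246 cells, stood at 181.1 CPM [169.4–193.4] of Tgfb1 and 82.9% of its cells held a UMI, whereas naive clusters 2, 3 and 4 stood at 15.6, 10.8 and 13.4 CPM, cluster 6 at 54.5 and cluster 7 at 99.1. It held 5.52% of naive CD301bhi cDC2s and 52.2% of their Tgfb1 UMIs, 9.71% and 66.8% in CD301bint cells and 21.7% and 68.0% in CD301blo cells. No papain cluster was at that level, with a range of 17.0 to 31.1 CPM.

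The marker transcripts of naive cluster 5 set it apart as well. It held 275.8 CPM of Mgl2, which encodes CD301b, and 257.4 CPM of Cd209a, against at most 33.3 and 21.2 CPM in the other naive clusters. By surface protein, however, 58.1% of its cells were CD301blo, 26.0% CD301bint and 15.9% CD301bhi. The complement gene C1qa was at 64.5 CPM, against at most 2.40 in the other naive clusters, and 5 macrophage genes summed to 230.2 CPM, against 3.86 to 18.7. Ccr7, the receptor that guides migration to the node, was at 1388.5 CPM against 2754.1 to 5029.2, and Fscn1, the actin bundling gene of mature DCs, at 409.9 against 991.5 to 3396.2. In papain clusters Cd209a was at most 14.4 CPM, C1qa at most 4.98 CPM and Ccr7 between 710.7 and 4331.9 CPM. T cell genes summed to 798.7 CPM in naive cluster 7. The part of these transcripts in the Tgfb1 level was not tested.

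Without naive cluster 5, also an alternative chosen after the data were seen, the naive levels of Tgfb1 became 17.3, 16.6 and 27.4 CPM in CD301bhi, CD301bint and CD301blo cDC2s. The papain to naive ratios became 1.03 [0.880–1.22], 1.19 [0.991–1.43] and 1.01 [0.848–1.20]. The naive cluster with the highest Tgfb1 was left out and all papain cells were kept, so the naive levels had to fall. These ratios show how far the naive level rested on that cluster and do not compare matched cells. The naive ratio of CD301bhi to CD301blo cells remained below 1, at 0.633 [0.512–0.781]. The Cd200 ratios of the cDC2 classes were 2.28, 2.34 and 2.42 without cluster 5, and 3.09, 2.64 and 2.81 without cluster 1. In cDC1s Tgfb1 was at 30.1 and 17.9 CPM, a ratio of 0.594 [0.437–0.795], but at 17.2 and 14.3 CPM, with a ratio of 0.833 [0.568–1.20], once cells holding T or B cell gene UMIs were left out.

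**Figure D5:**
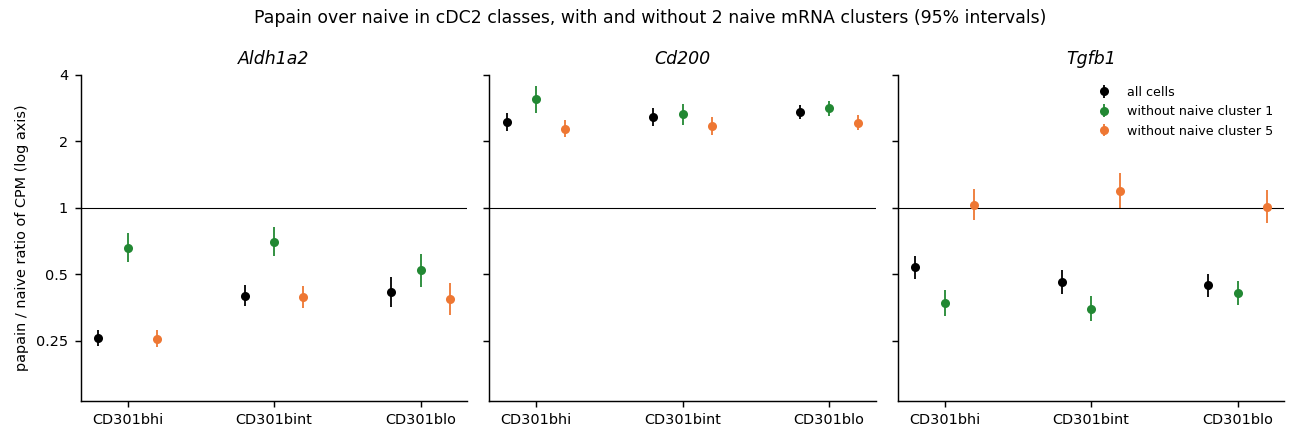
Ratio of papain to naive levels (vertical axis, logarithmic) in the 3 cDC2 classes (horizontal axis) with all cells (black), without naive mRNA cluster 1 (green) and without naive mRNA cluster 5 (orange), with 95% intervals for counting error. Cd200 stays above 1 under all 3 sets of cells, Aldh1a2 moves toward 1 without cluster 1, and Tgfb1 moves to between 1.01 and 1.19 without cluster 5.

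With all naive cells counted, those with a Cd200 UMI held less Tgfb1 than those without one. The Tgfb1 levels were 18.4 and 42.0 CPM in CD301bhi, 32.3 and 50.6 CPM in CD301bint and 41.6 and 80.0 CPM in CD301blo cDC2s. This went with naive cluster 5, without which they were 16.7 and 17.7 CPM, 19.2 and 14.8 CPM, and 29.7 and 24.8 CPM. In the papain library the corresponding levels were 18.5 and 16.8, 20.4 and 18.4, and 26.6 and 30.5 CPM.

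Ido1 and Ido2 were low, and their highest levels were in LCs. Ido1 was at 3.39 CPM [2.01–5.35] in naive and 4.63 CPM [3.70–5.73] in papain LCs, from 18 and 85 UMIs, against 0.0876 to 1.63 CPM in the other naive classes and 0.102 to 0.665 CPM in the other papain classes. LCs were 5.25 times [2.62–10.4] and 18.9 times [11.9–31.1] above cDC2s in the naive and papain library. In the naive library LCs were not separated from CD301blo cDC2s, with a ratio of 2.08 [0.991–4.44]. Between the libraries the LC level of Ido1 was not separated, at a ratio of 1.37 [0.816–2.42].

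Ido2 was at 2.45 CPM [1.30–4.18] in naive and 3.27 CPM [2.50–4.21] in papain LCs, also not separated at a ratio of 1.34 [0.726–2.65]. LCs were 5.05 times [2.21–11.4] and 3.77 times [2.66–5.31] above cDC2s, but in the papain library they were not separated from cDC1s, with a ratio of 1.68 [0.726–4.74]. The shares of LCs with a UMI were 3.86% and 7.83% for Ido1 and 2.27% and 5.90% for Ido2, in naive and papain, or 3.35% and 3.90% and 1.85% and 2.77% after thinning, whereas Trac was found in 2.73% and 6.47% and Cd3e in 0.909% and 1.14% of the same cells. Thinned, Trac was found in 1.73% and 3.24%, close to the thinned Ido2 shares, so as shares alone these are not read as above background. Both genes were found together in 0 naive and 4 papain LCs, against 0.386 and 4.07 cells given by the product of their shares.

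Il4i1 was close to the detection limit in every class. Levels were 0.105 to 0.968 CPM in the naive and 0.238 to 1.63 CPM in the papain library, from 33 UMIs in 3042 cells and 60 UMIs in 7306 cells. The shares, 0.173% to 2.13%, did not exceed the highest T or B cell gene share of the same class and are not read as above background. This does not show that they are background, since the T and B cell gene shares differ widely. In naive CD301bhi cDC2s the Il4i1 share of 1.27% lay above Cd79a at 0.566% and below Cd79b at 2.40%. The levels of 0.968 and 0.238 CPM in naive and papain CD301bint cDC2s rested on 10 and 7 UMIs, and those of 0.105 and 1.63 CPM in cDC1s on 1 and 5 UMIs, so no difference is read from them.

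Other genes of these pathways, taken from lists of names, were counted by the same rule in CD301bhi cDC2s. Of all genes tested in these cells, 9.41% were higher in the papain library and 7.96% lower. Of 6 tryptophan and kynurenine genes tested, 1 was higher in the papain library and 2 lower, with a median log2 ratio of -0.47 against 0.09 for all genes. Wars, the tryptophanyl-tRNA synthetase, was at 29.1 and 49.3 CPM, whereas Tiparp, a target of the aryl hydrocarbon receptor, was at 31.8 and 18.4 CPM and Haao, which acts downstream of kynurenine, had a ratio of 0.616. Tiparp had a ratio of 0.919 [0.790–1.07] without naive cluster 5, so that 1 gene, Haao, was lower. The median log2 ratio of the list was then -0.10, and of all genes tested 671 were higher and 487 lower. The receptor itself, Ahr, was at 21.9 to 48.3 CPM over all classes and was at 48.3 and 23.3 CPM in CD301blo cDC2s, where the ratio was 0.894 [0.748–1.07] without naive cluster 5. Kynu, which cleaves kynurenine, was at 10.4 to 32.4 CPM.

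Of 5 retinoic acid genes tested, 0 were higher and 1 lower, against 9.41% and 7.96% of all genes. The lower gene was Aldh1a2 itself, and the median was 0.02. The reductase Dhrs3 had a ratio of 1.27, and the receptors Rarg, Rxrb and Rara had ratios of 1.06, 1.02 and 1.01. The other retinaldehyde dehydrogenase listed, Aldh1a3, was at most at 4.11 CPM. Of 8 arginine genes, 0 were higher and 1 lower, with a median of -0.27. This was Azin1, an inhibitor of the antizyme that degrades ornithine decarboxylase, at 114.6 and 73.4 CPM. Of 4 genes of the amino acid stress response, 0 were higher and 1 lower, with a median of -0.25. This was the transcription factor Atf4, at 250.7 and 164.4 CPM, a ratio of 0.656 that lies just past the fold. Without cells holding T or B cell gene UMIs it was just short of the fold and the median was still -0.25.

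Of 12 TGF-beta genes tested in CD301bhi cDC2s, 1 was higher and 3 lower, against 9.41% and 7.96% of all genes. The median was -0.23, and 1 of the lower genes was Tgfb1. Itgav, the alpha v integrin chain, was at 20.4 and 53.9 CPM, a ratio of 2.64. Nrros, which anchors latent TGF-beta on myeloid cells, was at 98.8 and 40.9 CPM, a ratio of 0.414, and Furin, the protease that cleaves the precursor, at 50.6 and 29.2 CPM. Without naive cluster 5, 1 gene was higher, Itgav, and 1 lower, Nrros at a ratio of 0.490 [0.452–0.531]. At that setting 671 of all genes tested in CD301bhi cDC2s were higher and 487 lower, in place of 680 and 575. Over all comparisons and directions run at that setting, 3.88% to 10.0% of genes were called. Furin, at 0.699, and Tgfb1 were then not past the fold. Itgb8 pairs with alpha v in an integrin that releases active TGF-beta, and it was at 23.3 and 73.9 CPM in LCs, 39.9 and 10.1 CPM in cDC1s, and 12.8 to 21.4 and 13.0 to 19.6 CPM in cDC2s. Tgfb2 was at most at 6.18 CPM and Tgfb3 at most at 0.843 CPM in any class. In LCs 4 of 13 TGF-beta genes tested were higher and 1 lower, against 13.5% and 8.36% of all genes, and in cDC1s 0 were higher and 5 lower, against 9.35% and 11.8%. In naive cDC1s T cell transcripts summed to 191.8 CPM against 25.4 in papain cDC1s. Without cells holding T or B cell gene UMIs 3 of the 13 were lower in cDC1s, Tgfb1 not among them, and Itgb8 had a ratio of 0.207 [0.133–0.308] there. Of all genes tested in cDC1s, 767 were then higher and 602 lower. At that setting 3.27% to 13.7% of all genes were called over all comparisons and directions.

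Of 11 CD200 and other regulatory genes tested in CD301bhi cDC2s, 3 were higher and 2 lower, against 9.41% and 7.96% of all genes. Their median was 0.31. Besides Cd200 the higher genes were Cd86, the costimulatory ligand, at 122.7 and 244.3 CPM, and Ebi3, a subunit shared by IL-27 and IL-35, at 55.9 and 84.4 CPM. Ptgs2, the cyclooxygenase of prostaglandin synthesis, was at 341.3 and 99.7 CPM, a ratio of 0.292, and Vsir, the checkpoint ligand VISTA, had a ratio of 0.636. The receptor gene Cd200r1 was at 4.47 and 2.14 CPM in CD301bhi, 8.61 and 2.08 CPM in CD301bint and 12.2 and 1.88 CPM in CD301blo cDC2s, but in the naive library at 1.62, 1.69 and 2.84 CPM without cluster 5. Without that cluster 3 of these genes were higher, Cd200, Cd86 and Socs3, and 1 was lower, Ptgs2, while Ebi3 and Vsir had ratios of 1.46 and 0.777. Of all genes tested in CD301bhi cDC2s, 671 were then higher and 487 lower. Without cells holding T or B cell gene UMIs 2 were higher, Cd200 and Cd86, and 1 was lower, Ptgs2, with a median of 0.30. All genes then gave 681 higher and 565 lower calls. Of 20 mature DC genes, 5 were higher and 1 lower, against the same 9.41% and 7.96% of all genes, with a median of 0.29. Ccl17, a chemokine that attracts CCR4+ T cells, was at 417.6 and 847.4 CPM, Cd40 had a ratio of 1.60 and Il15 of 1.58, whereas Il12b, which encodes the p40 subunit, was at 158.4 and 39.0 CPM. Without naive cluster 5, 2 were higher, Ccl17 at a ratio of 1.91 and Cd40 at 1.51, and Il12b was still lower at 0.229. The median was then 0.21, and of all genes tested in these cells 671 were higher and 487 lower. Over all comparisons and directions run at that setting, 3.88% to 10.0% of genes were called.

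The patterns of the 3 genes that reached 10 CPM were compared with those of all other genes over the 10 groups of class and library, by Pearson correlation of log2 levels. As a description over groups that share 2 libraries, and among 8442 genes, Aldh1a2 was most like Slc11a2 (r = 0.982), Celf1 and 2610012C04Rik. Cd200 was most like Stk24 (0.958), Gm9844 and Rpl19-ps7, the last of which carries the name of a ribosomal pseudogene. Tgfb1 was most like Mapk14 (0.958), Eif4g3 and Stk10.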

How the data were processed

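Migratory DCs of 1 naive and 1 papain library were profiled by 10x 3′ CITE-seq. The submitters' processing notes name Cell Ranger 3.0.1, Partek and mm10. For mRNA the authors deposited log2 values, log2 of CPM plus 1, per cell and gene, and for surface proteins natural log (ln) values, with their surface protein class and mRNA cluster of each cell. Whole UMIs were recovered from the step of each cell: 100% of values up to 50 UMIs were whole within 0.02. Listed genes made up a fraction of 0.81 to 0.979 of the CPM total per cell. UMIs were summed per class and library and divided by the UMIs of that class. Cells are not replicates, and the libraries have none, so values carry counting intervals and no test. No doublet caller was run, and sets without cells holding T or B cell gene UMIs and without the deepest 5% of cells were tried instead. Motifs were searched in RefSeq promoter windows, cut at the gene start.

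The text names the 6 genes, for each pathway list up to 4 genes with the largest absolute log2 ratio in CD301bhi cDC2s among those reaching 10 CPM, a set of partner genes, and the 3 genes most alike per member. Of the partners, Nos2 and Aldh1a1 were not analysed here, and 1 further gene chosen with the members is not reported here. The genes and lists were chosen with earlier results of these data known. The alternatives were another mean, scaling, pseudocount, fold, minimum level, cell filter and CD301b split, and leaving out naive mRNA cluster 1 or 5. Scripts ran in Python 3.11.15 with numpy 2.4.6, scipy 1.17.1, pandas 2.3.3 and matplotlib 3.10.9 and were tested on simulated data.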

Additional observations from a re-analysis of the deposited data

Results flagged for a closer look

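Aldh1a2 moved in opposite directions in different DC classes, although the difference was not tested. Its log2 ratio of papain to naive was -1.92 in CD301bhi, -1.29 in CD301bint and -1.22 in CD301blo cDC2s, but 0.76 in cDC1s, from 62 naive and 36 papain UMIs. The cDC1 value was 0.39 and not past the fold with 10 CPM added, and Aldh1a2 was under 10 CPM in both libraries of cDC1s without the 1% of cells with most of its UMIs. Tgfb1 did the same, and again the difference was not tested. Its log2 ratio was -0.86, -1.09 and -1.14 in the cDC2 classes and -0.72 in cDC1s, but 1.01 in LCs. Without naive cluster 5 the cDC2 values were 0.04, 0.24 and 0.01, and without cells holding T or B cell gene UMIs the cDC1 value was -0.25, short of the fold.

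Cells without a surface protein class entered no comparison, yet they held several of these transcripts above the level that 3 UMIs would give. In the naive library, 429 such cells stood at 45.9 CPM of Aldh1a2, 53.5 of Cd200, 43.7 of Tgfb1, 1.23 of Ido1 and 1.10 of Ido2. In the papain library, 290 such cells stood at 2.97 CPM of Aldh1a2, 37.1 of Cd200 and 49.8 of Tgfb1. Their T cell transcripts summed to 839.1 and 2082.7 CPM in the naive and papain library, and the part of T cells in these levels was not tested.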

How the results depend on the processing

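Over 200 alternative values for the log2 ratios of genes past the fold, 3 changed direction and 20 no longer passed. Without naive cluster 5 the log2 ratio of Tgfb1 became 0.04, 0.24 and 0.01 in CD301bhi, CD301bint and CD301blo cDC2s, leaving 1 lower gene in each. Without naive cluster 1, 1 gene was lower in CD301bint cDC2s (Aldh1a2 at -0.49 and no longer past the fold), and of naive CD301bhi against CD301blo cells 0 were higher and 1 lower (Aldh1a2 at 0.12 and Tgfb1 at -0.46). With 10 CPM added, cDC1s had 1 higher and 0 lower genes. Without cells holding T or B cell gene UMIs, cDC1s had 0 lower (Tgfb1 at -0.25) and LCs 2 higher genes. Without the 1% of cells with most UMIs of a gene, cDC1s had 1 higher gene, since Aldh1a2 was under 10 CPM in both libraries, and LCs had 2 higher. Under these 3 settings and with CD301b tertiles, 1 gene, Cd200, was lower in papain CD301bhi than CD301blo cells, because Tgfb1 was near the fold (-0.43 to -0.57, against -0.60). With a 2-fold rule, CD301bhi cDC2s had 1 lower gene, cDC1s 0 higher and 0 lower, and CD301bhi against CD301blo cells 1 lower in each library. With no minimum level, cDC1s had 4 higher genes, from counts as low as 1 UMI, and 1 gene was added to the lower ones of CD301bint cDC2s (Il4i1 at -0.67), of CD301blo cDC2s (Ido1 at -0.66) and of naive CD301bhi against CD301blo cells (Ido1 at -1.27).

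Of all genes tested, 3.60% to 13.5% were called per comparison and direction, against 0.763% to 5.83% at 2-fold, 1.87% to 8.39% with 10 CPM added and 2.58% to 18.8% with no minimum level. Tertiles called 171 genes lower in papain CD301bhi than CD301blo cells in place of 258, leaving out naive cluster 5 called 658 lower in CD301blo cDC2s in place of 1005, and leaving out cluster 1 called 1083 higher in CD301bhi cDC2s in place of 680. Scaling to the median ratio moved the share of higher calls to 39.3% in CD301bhi cDC2s (469 higher, 723 lower) and to 46.6% between naive CD301bhi and CD301blo cells (466 and 534), and the members' calls were the same. Leaving out cells with T or B cell gene UMIs turned the balance in cDC1s from 677 higher and 853 lower (44.2% higher) to 767 and 602 (56.0%). No paired analysis was possible because each condition has a single library with nothing to pair.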
